A study of Mus musculus with 12 samples.

Results

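Mature microRNAs of a pair of related clusters, miR-106b-25 and miR-106a-363, were followed in germ cells and somatic cells of the fetal mouse gonad. They were chosen by name: miR-106b-5p, miR-93-5p and miR-25-3p of miR-106b-25, and miR-106a-5p, miR-20b-5p, miR-363-3p and miR-363-5p of miR-106a-363. These 7 members are part of 616 microRNAs listed, and all 7 passed the filter on low values (a mean deposited value of at least 5) that left 513 microRNAs to test. Small RNA was sequenced from 12 libraries of CD1 mouse embryos that carried no allele or treatment named in the labels. Primordial germ cells (PGC) are the precursors of eggs and sperm, and gonadal somatic cells (SC) are the other cells of the gonad. Both came from females and males at embryonic day 11.5 (E11.5), E12.5 and E13.5. Each of the 12 conditions was 1 library. The labels' protocols state that embryos were sexed by PCR, that gonads were freed of the mesonephros and that about 80 of them were pooled per group. Anti-CD15 magnetic beads then gave a PGC fraction stated as 93 to 96% enriched and an SC fraction stated as over 90% pure.

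Both clusters are paralogues of miR-17-92, a polycistron best known as a driver of proliferation and as a tumour-promoting locus. A microRNA selects its targets mainly through its seed, bases 2 to 8 counted from the 5′ end, so that paralogues with the same seed can act on overlapping sets of messages. miR-106b and miR-93 are known to repress the cell-cycle inhibitor Cdkn1a, and miR-25 the pro-apoptotic gene Bcl2l11. In the germ line, miR-17-92 family members are known as abundant microRNAs of PGCs.

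In GRCm38.p6 the miR-106b-25 hairpins lie at chr5:138165321-138165818 on the minus strand, a stretch of 498 bp with 3 hairpins, all inside the gene Mcm7, which encodes a subunit of the replicative helicase. The miR-106a-363 hairpins lie at chrX:52741693-52742567 on the minus strand, a stretch of 875 bp with 6 hairpins. Besides the members these hairpins yield miR-18b, miR-19b and miR-92a, and the last 2 are identical in mature sequence to products of miR-17-92 on chromosome 14. Only the 5′ end of this cluster overlaps an annotated gene in the same table, Kis2, which starts at position 52742563.

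The mature sequences show which members share a seed and how closely they resemble their miR-17-92 counterparts. They are given 5′ to 3′ from RefSeq (GRCm38.p6), with the seed in capitals. The seed AAAGUGC is shared by these, the last 2 being the miR-17-92 counterparts:
miR-106b-5p: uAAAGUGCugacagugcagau
miR-93-5p: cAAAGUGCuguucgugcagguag
miR-106a-5p: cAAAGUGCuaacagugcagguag
miR-20b-5p: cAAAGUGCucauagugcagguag
miR-17-5p: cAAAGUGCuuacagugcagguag
miR-20a-5p: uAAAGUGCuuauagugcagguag
The seed AUUGCAC is shared by these, the last being the miR-17-92 counterpart:
miR-25-3p: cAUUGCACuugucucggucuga
miR-363-3p: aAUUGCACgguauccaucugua
miR-92a-3p: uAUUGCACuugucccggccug
Counted from the 5′ end, miR-106a-5p differed from miR-17-5p by the single substitution U10A, with 22 of 23 bases the same. miR-20b-5p differed from miR-20a-5p by U1C and U10C. miR-363-3p differed from miR-92a-3p at 11 of 21 positions, all outside the seed. miR-93-5p differed from miR-17-5p at 4 positions. How reads were assigned between such near-identical microRNAs is not given in the sources used here, and its part in the values of miR-106a-5p and miR-20b-5p was not tested.

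The libraries held 166804 to 1768825 microRNA reads, with the fewest in the PGC libraries of E12.5. Values are reads per 1e+06 microRNA reads of a library (RPM), and the deposited scale, which divides reads by 1 size factor per library, is given beside each test. A deposited 0 stands for under 5 reads, a floor of 2.83 to 29.98 RPM depending on the library. The PGC label was checked with 9 microRNAs of the miR-290 cluster, which is typical of germ and pluripotent cells. Their summed level was 67015 to 136697 RPM in 5 PGC libraries, 2141 RPM in the library labelled PGC female E11.5, 221 to 569 RPM in SC at E11.5 and E12.5, and 3305 and 5787 RPM in female and male SC at E13.5. The list of 7 somatic and mesenchymal markers summed to 84876 RPM in the library labelled PGC female E11.5, 59245 RPM in PGC male E11.5, 9302 to 30151 RPM in the other PGC libraries and 86766 to 117390 RPM in SC. The endothelial list (2 microRNAs) summed to 51442 RPM in the library labelled PGC female E11.5 and 4670 to 27782 RPM in the other PGC libraries, against 16088 to 37105 RPM in SC. The erythroid list (4 microRNAs) summed to 32.6 to 1663 RPM in PGC and 290 to 2197 RPM in SC. Of the miR-290 cluster list, miR-290a-3p was at 0 in at least 1 PGC library, and 3 of the 9 were at 0 in at least 1 SC library. The library labelled PGC female E11.5 thus stood apart from the other PGC libraries: it lay within the SC range for the germ cell and erythroid lists, just under it for the somatic list and above it for the endothelial list. The tests that rest on it most are given with and without it. In such bulk fractions, fewer cells of a type and less RNA per cell cannot be told apart.

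The X-linked cluster was more abundant in PGC than in SC, and the chromosome 5 cluster was abundant in both. The 4 miR-106a-363 members together took 0.626 to 1.28% of the reads of 5 PGC libraries, 0.0790% of the library labelled PGC female E11.5 and 0.0271 to 0.0708% of the SC libraries. The 3 miR-106b-25 members took 2.64 to 4.07% in PGC and 1.85 to 2.80% in SC. For every 100 reads of miR-106b-25 there were thus 23.7 to 32.3 reads of miR-106a-363 in 5 PGC libraries, 2.76 in the library labelled PGC female E11.5 and 1.20 to 3.09 in SC.

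**Figure D1:**
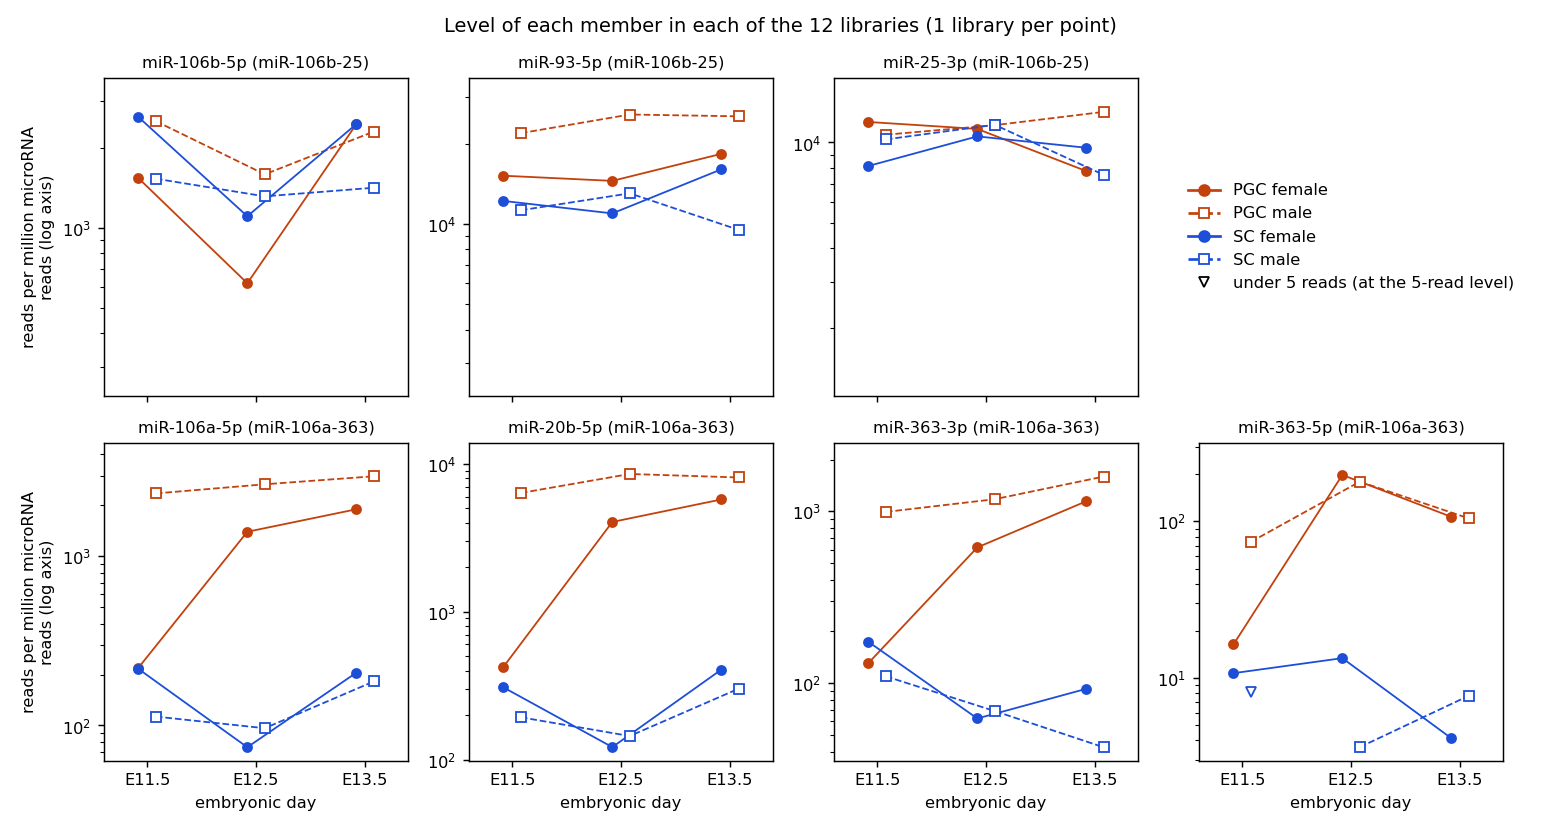
Level of each of the 7 members (RPM, log axis) against embryonic day, with 1 point per library, germ cells in orange and somatic cells in blue, females as filled circles with solid lines and males as open squares with dashed lines. In the lower row the germ cell points lie well above the somatic ones apart from E11.5 in females, where the points lie close together and miR-106a-5p stood at 219 RPM in PGC and 216 RPM in SC; a triangle marks the library under 5 reads.

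miR-20b-5p was the most abundant member of miR-106a-363 in all 12 libraries. In PGC it stood at 423 RPM (female) and 6356 RPM (male) at E11.5, 4047 and 8546 RPM at E12.5, and 5743 and 8092 RPM at E13.5. In SC it stood at 308 and 193 RPM at E11.5, 121 and 144 RPM at E12.5, and 405 and 301 RPM at E13.5. The groups did not overlap, but the library labelled PGC female E11.5 lay next to the highest SC library, and the 95% counting intervals of these neighbours overlapped (388 to 461 RPM against 375 to 437 RPM). The mean was 5534 ± 2989 RPM in PGC and 245 ± 110 RPM in SC (SD, n = 6 libraries of different stage and sex each). The fitted log2 difference over 6 stage-by-sex pairs was 4.16 ± 0.59 (SE, adjusted p = 0.000758), with PGC higher in 6 of 6 pairs.

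miR-106a-5p, the X-linked copy closest to miR-17-5p, showed the same split of the libraries at a lower level. In PGC it stood at 219 RPM (female) and 2354 RPM (male) at E11.5, 1397 and 2666 RPM at E12.5, and 1897 and 2973 RPM at E13.5. In SC it stood at 216 and 113 RPM at E11.5, 74.4 and 96.3 RPM at E12.5, and 205 and 182 RPM at E13.5. The groups did not overlap, though the female E11.5 pair differed by less than its counting intervals (194 to 247 RPM in PGC, 195 to 239 RPM in SC). The fitted log2 difference was 3.43 ± 0.56 (SE, adjusted p = 0.00201), with PGC higher in 6 of 6 pairs.

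miR-363-3p carries the other seed of the cluster and was the member in which the groups overlapped. In PGC it stood at 131 RPM (female) and 993 RPM (male) at E11.5, 617 and 1178 RPM at E12.5, and 1146 and 1596 RPM at E13.5. In SC it stood at 174 and 110 RPM at E11.5, 62.3 and 68.8 RPM at E12.5, and 92.7 and 42.4 RPM at E13.5. PGC was higher in 5 of 6 pairs, the exception being the female pair of E11.5, where SC was higher. The fitted log2 difference was 3.16 ± 0.62 (SE, adjusted p = 0.00531).

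miR-363-5p, the other arm of the same hairpin, was the least abundant member and rested on few reads. In PGC it had 20 reads (female) and 32 reads (male) at E11.5, 33 and 33 reads at E12.5, and 46 and 41 reads at E13.5, or 16.4 to 198 RPM. In SC it had 19 reads and under 5 reads at E11.5, 20 and 5 reads at E12.5, and 7 and 8 reads at E13.5, with a highest level of 13.4 RPM. The groups did not overlap, but the counting interval of the library labelled PGC female E11.5 (up to 25.3 RPM) held that highest SC value. The fitted log2 difference was 3.98 ± 0.81 (SE, adjusted p = 0.00606), a value that depends on the pseudocount of 1. With a pseudocount of 10 it was 2.68 (adjusted p = 0.00139).

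Among miR-106b-25, miR-93-5p was the most abundant member in all 12 libraries and the closest of the 3 to a call. In PGC it stood at 15154 RPM (female) and 21900 RPM (male) at E11.5, 14490 and 25742 RPM at E12.5, and 18307 and 25340 RPM at E13.5. In SC it stood at 12180 and 11236 RPM at E11.5, 10935 and 13011 RPM at E12.5, and 16008 and 9482 RPM at E13.5. The groups overlapped, since SC female E13.5 lay above both PGC female libraries of E11.5 and E12.5, but each PGC library lay above its own SC partner. The log2 difference of 0.71 ± 0.26 (SE) had an adjusted p of 0.0518, and without the library labelled PGC female E11.5 it was 0.79 with an adjusted p of 0.0408.

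miR-25-3p was close to level across the study. In PGC it stood at 11946 RPM (female) and 10697 RPM (male) at E11.5, 11247 and 11619 RPM at E12.5, and 7809 and 13035 RPM at E13.5. In SC it stood at 8161 and 10273 RPM at E11.5, 10543 and 11657 RPM at E12.5, and 9556 and 7558 RPM at E13.5. The groups overlapped through most of their range, and the log2 difference was 0.20 ± 0.25 (SE, adjusted p = 0.531).

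miR-106b-5p, the member that names the chromosome 5 cluster, was the least abundant of its 3 members. In PGC it stood at 1534 RPM (female) and 2511 RPM (male) at E11.5, 617 and 1585 RPM at E12.5, and 2445 and 2294 RPM at E13.5. In SC it stood at 2603 and 1526 RPM at E11.5, 1103 and 1310 RPM at E12.5, and 2447 and 1412 RPM at E13.5. The lowest library was PGC female E12.5 and the highest SC female E11.5, and the log2 difference was 0.02 ± 0.30 (SE, adjusted p = 0.966), with PGC higher in 3 of 6 pairs.

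In all, 4 of 7 members rose in PGC on the RPM scale at an adjusted p under 0.05, all of them from miR-106a-363 (4 of 4) and 0 from miR-106b-25 (0 of 3). Over all 513 microRNAs tested, 39% were called in either direction, 13.5% higher and 25.5% lower, and the median log2 difference was -0.74. Without the library labelled PGC female E11.5, whose SC partner then leaves the paired fit too, the log2 differences of the 4 called members were 4.12 for miR-106a-5p, 4.91 for miR-20b-5p, 3.87 for miR-363-3p and 4.66 for miR-363-5p, all still called. The calls needed most of the pairs, and so did those over all microRNAs, of which 200 were called in the full fit. Leaving out the pair of E12.5 PGC libraries left 1 member and 17 of all microRNAs called. Leaving out the pair of E13.5 SC libraries left 0 members and 7 of all microRNAs called, where the log2 differences of the 4 members were 2.53 to 4.11.

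The deposited scale gave other calls than RPM for both clusters. The median log2 difference of all 513 was -2.57 on that scale, with 84.2% called in either direction, 7.02% higher and 77.2% lower. miR-20b-5p (log2 difference 1.93, adjusted p = 0.0130) and miR-363-5p (1.75, adjusted p = 0.0373) rose there too, with PGC higher in 5 of 6 pairs for each. miR-106a-5p (1.21, adjusted p = 0.0970) and miR-363-3p (0.94, adjusted p = 0.206) kept their direction and were not called. Without the library labelled PGC female E11.5, miR-106a-5p was called on that scale (1.70, adjusted p = 0.0239) and miR-363-3p was not (1.46, adjusted p = 0.0584). The miR-106b-25 members turned: miR-106b-5p fell by 2.21 (adjusted p = 0.00478), miR-25-3p by 2.03 (adjusted p = 0.00551) and miR-93-5p by 1.52 (adjusted p = 0.0273), with PGC higher in 0, 0 and 1 of 6 pairs. On both scales the 7 members lay above the median of all microRNAs, while the direction of miR-106b-25 between the cell types differed between the scales. The deposited size factors did not follow depth. PGC female E12.5, with 166804 reads, had a factor of 1.58 and a deposited sum of 105730. SC female E11.5, with 1768825 reads, had a factor of 0.82 and a sum of 2158037. With median-of-ratios factors from the same reads, the miR-106b-25 members kept their RPM direction. miR-93-5p was then at 0.80 (limma, adjusted p = 0.0375), and the median of all 513 was -0.63.

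**Figure D2:**
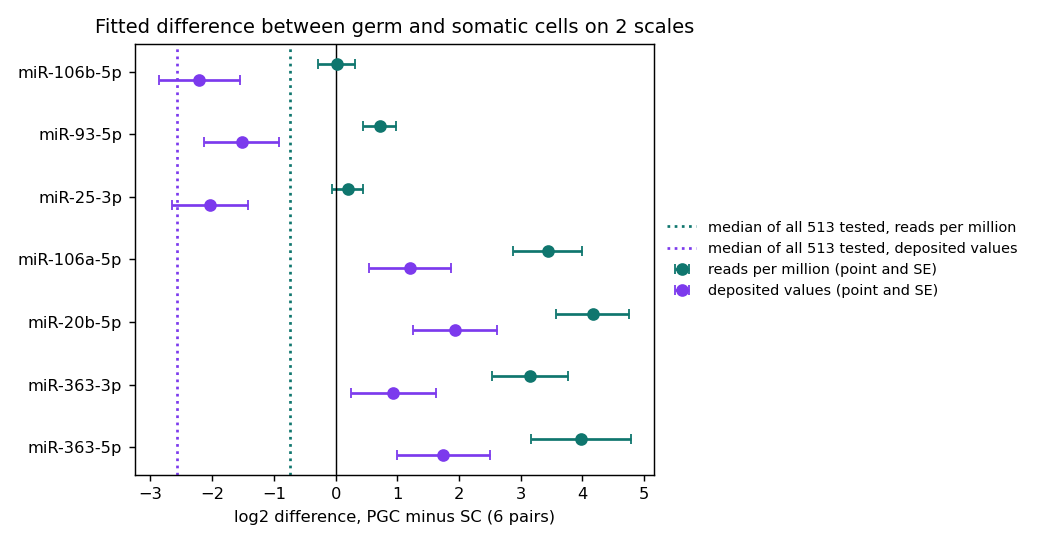
Fitted log2 difference between germ and somatic cells (PGC minus SC) for each of the 7 members over 6 pairs, with SE bars, in RPM (green) and on the deposited scale (purple); dotted lines mark the median of all 513 microRNAs on each scale (-0.74 and -2.57). The miR-106a-363 members lie above 0 on both scales, while the miR-106b-25 members lie at 0.02 to 0.71 in RPM and at -2.21 to -1.52 on the deposited scale.

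The proportions of the members within each cluster were compared as values, without a test. miR-20b-5p made up 63.4 to 68.0% of the miR-106a-363 reads in 5 PGC libraries, 53.6% in the library labelled PGC female E11.5 and 43.4 to 57.3% in SC. There were 2.70 to 3.21 reads of miR-20b-5p per read of miR-106a-5p in those 5 PGC libraries, 1.93 in the library labelled PGC female E11.5 and 1.42 to 1.98 in SC. miR-363-3p made up 9.37 to 12.9% in the 5 PGC libraries, 16.6% in the library labelled PGC female E11.5 and 7.94 to 26.4% in SC. miR-93-5p made up 52.9 to 66.1% of the miR-106b-25 reads in PGC and 48.4 to 57.1% in SC, and miR-25-3p 27.3 to 42.7% and 34.1 to 46.7%. Apart from the miR-20b-5p to miR-106a-5p ratio in the 5 PGC libraries and their miR-20b-5p share, the ranges of these proportions overlapped between the cell types.

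The X-linked members supplied a larger share of the seed AAAGUGC in 5 PGC libraries than in any SC library. Of the 616 microRNAs, 6 carry the seed AAAGUGC. miR-106a-5p and miR-20b-5p supplied 7.97 to 13.2% of its reads in 5 PGC libraries, 1.03% in the library labelled PGC female E11.5 and 0.635 to 1.48% in SC. miR-106b-5p and miR-93-5p supplied 22.3 to 36.6% in PGC and 25.3 to 40.1% in SC. miR-17-5p and miR-20a-5p supplied the rest, 50.3 to 72.1% in PGC and 59.2 to 73.8% in SC, so the miR-17-92 products led this seed group in every library. The seed AUUGCAC is carried by 5 listed microRNAs. miR-363-3p supplied 0.327 to 2.94% of its reads in PGC and 0.211 to 0.622% in SC, against 12.4 to 29.8% and 23.6 to 44.8% for miR-25-3p. miR-92a-3p supplied 54.2 to 85.3% over all libraries and is made by both miR-17-92 and the X-linked cluster, so the X-linked share of this seed is not known.

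**Figure D3:**
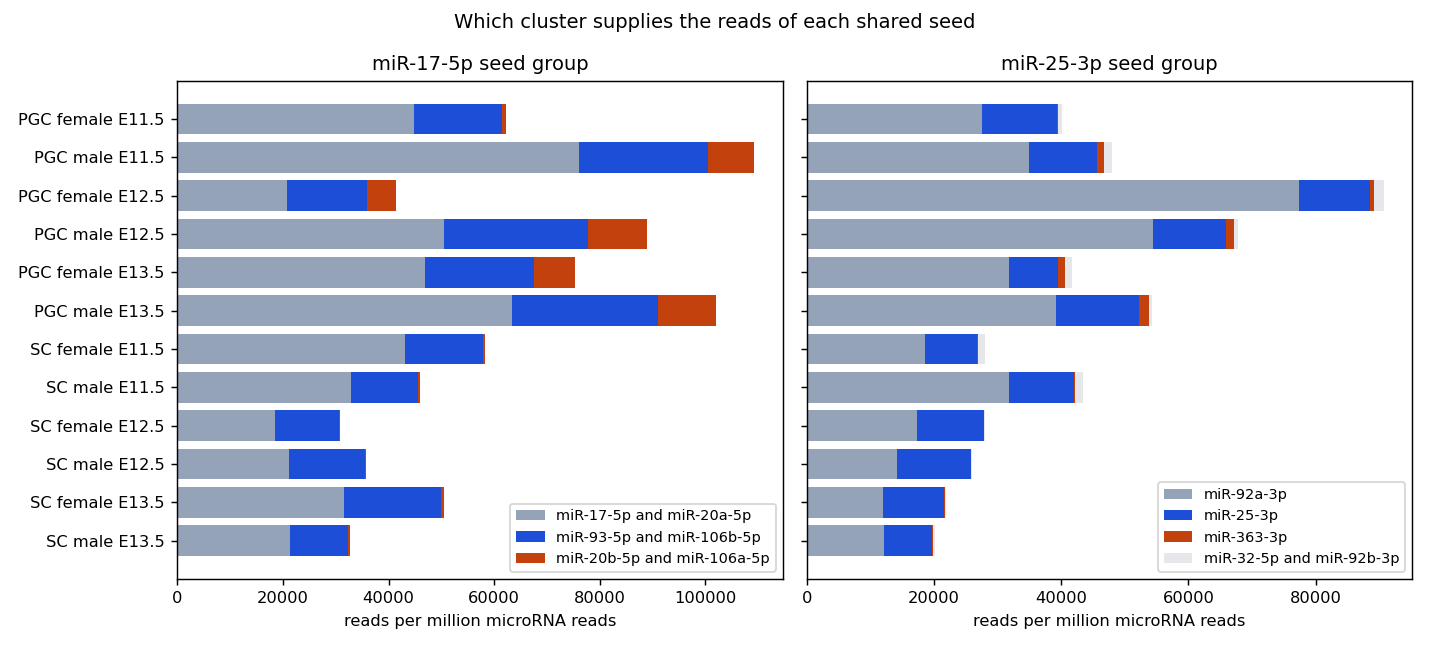
Level (RPM) of the microRNAs that share a seed, stacked by source and with 1 bar per library: the miR-17-5p seed group on the left and the miR-25-3p seed group on the right. The orange segment of miR-20b-5p and miR-106a-5p makes up 7.97 to 13.2% of the bar in 5 germ cell libraries on the left, and that of miR-363-3p at most 2.94% on the right, where miR-92a-3p (grey) has sources on both chromosomes.

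Relative to their miR-17-92 counterparts, miR-106a-5p and miR-20b-5p were higher in 5 PGC libraries than in any SC library, though below those counterparts throughout. There were 8.81 to 12.6 reads of miR-106a-5p per 100 reads of miR-17-5p in 5 PGC libraries, 1.23 in the library labelled PGC female E11.5 and 0.872 to 2.28 in SC. For miR-20b-5p per 100 reads of miR-20a-5p the values were 12.9 to 45.0, 1.57 and 0.971 to 2.26. For miR-363-3p per 100 reads of miR-92a-3p they were 0.798 to 4.07, 0.477 and 0.345 to 0.935, so these ranges overlapped. The list of 10 tested miR-17-92 products had 2 members that rose in PGC in RPM, miR-17-5p (log2 difference 0.87, adjusted p = 0.0291) and miR-92a-3p (1.32, adjusted p = 0.0126), 0 that fell, and a median of 0.15. Of all 513 microRNAs, 13.5% were called higher and 25.5% lower in RPM, with a median of -0.74. On the deposited scale 9 of the 10 fell and 0 rose, with a median of -2.04. There, 77.2% of all 513 were called lower and 7.02% higher, with a median of -2.57. miR-92a-3p is also encoded by miR-106a-363, and the table does not separate its sources.

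Some other products of the same hairpins were seen at low depth only. miR-18b-3p had 5 to 12 reads in 5 PGC libraries and under 5 reads in the library labelled PGC female E11.5 and in all 6 SC libraries. miR-92a-2-5p, the passenger arm of the X-linked miR-92a hairpin, had 7 to 15 reads in 4 PGC libraries and under 5 reads in the other 8 libraries; it was singled out after its values were seen. Both had a mean deposited value under 5 and were not tested. miR-18b-5p was above 5 reads in all 12 libraries, with 36.0 to 357 RPM in PGC and 43.5 to 314 RPM in SC, and its log2 difference of 0.54 was not called (adjusted p = 0.402). Of the other arms of the miR-106b-25 hairpins, miR-106b-3p (0.20, adjusted p = 0.581), miR-93-3p (0.57, adjusted p = 0.358) and miR-25-5p (1.07, adjusted p = 0.0661) were not called either. Over the 12 libraries there were 0.332 to 2.80 reads of miR-106b-5p per read of miR-106b-3p.

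Over time in PGC, the X-linked members were higher at E13.5 than at E11.5 in both sexes, and the female series made most of the change. In females, miR-20b-5p went from 423 to 5743 RPM, a ratio of 13.6, miR-106a-5p had a ratio of 8.64, miR-363-3p of 8.75 and miR-363-5p of 6.53. In males the ratios were 1.27, 1.26, 1.61 and 1.41. The fitted log2 changes were 2.05 ± 0.76 for miR-20b-5p (SE, adjusted p = 0.0886), 1.72 ± 0.69 for miR-106a-5p (adjusted p = 0.112), 1.90 ± 0.64 for miR-363-3p (adjusted p = 0.0683) and 1.56 ± 1.11 for miR-363-5p (adjusted p = 0.341).

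On this test 0 of 7 members were called, where 28.8% of all 513 microRNAs were called in either direction and 7.41% higher. The female change starts from the library labelled PGC female E11.5, whose germ cell markers were at 2141 RPM. Without it the log2 changes were 0.49, 0.41, 0.80 and 0.47. Without PGC male E11.5, the fit rested on the female series at E11.5. The log2 changes were then 3.61 for miR-20b-5p, 3.03 for miR-106a-5p, 3.01 for miR-363-3p and 2.66 for miR-363-5p. Both of these fits kept 1 PGC library at E11.5, so only their effect sizes are given here. miR-93-5p (0.24), miR-106b-5p (0.27) and miR-25-3p (-0.16) had adjusted p-values of 0.588 to 0.741. On the deposited scale 0 of 7 were called as well, beside 32.9% of all microRNAs in either direction, 7.8% higher and 25.1% lower.

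In SC, 0 of 7 members were called between E11.5 and E13.5 on the RPM scale, where 7.99% of all microRNAs were called (6.63% higher, 1.36% lower), and 0 of 7 on the deposited scale, where 10.9% were (8.38% higher). miR-363-3p had the largest change among them, a log2 value of -1.13 ± 0.64 (SE, adjusted p = 0.340), with ratios of 0.532 in females and 0.386 in males. The difference between PGC and SC in this change was 3.03 ± 0.91 (SE) for miR-363-3p, with an unadjusted p of 0.0126 and an adjusted p of 0.130. Without the library labelled PGC female E11.5 it was 1.92 (adjusted p = 0.216), and without PGC male E11.5 it was 4.13 (adjusted p = 0.122). For this difference limma called 0 of 513 microRNAs (0%) in RPM, with 108 at an unadjusted p under 0.05, and 4 (0.78%) on the deposited scale, none of them a member.

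Between the sexes, female PGC had less of the X-linked members than male PGC at every stage for miR-106a-5p, miR-20b-5p and miR-363-3p. The male to female ratio of miR-20b-5p was 15.0 at E11.5, 2.11 at E12.5 and 1.41 at E13.5. For miR-106a-5p it was 10.7, 1.91 and 1.57, and for miR-363-3p 7.58, 1.91 and 1.39. The ratio at E11.5 again includes the library labelled PGC female E11.5. The miR-17-92 counterparts were also lower in female PGC at every stage. Their male to female ratios were 1.49, 1.88 and 1.48 for miR-17-5p and 1.83, 3.14 and 1.29 for miR-20a-5p. Of the 10 miR-17-92 products tested, 9 had a negative fitted difference, female minus male, and 1 a positive one. The fitted log2 difference, female minus male, was -1.83 ± 0.62 for miR-20b-5p, -1.67 ± 0.57 for miR-106a-5p and -1.44 ± 0.52 for miR-363-3p (SE, each with an adjusted p of 0.268). Without the library labelled PGC female E11.5 these were -0.79, -0.79 and -0.70 (adjusted p = 0.483, 0.492 and 0.522). miR-93-5p was also lower in females at 3 of 3 stages (-0.61, adjusted p = 0.275). miR-363-5p had a value of -0.64 (adjusted p = 0.746), but it was higher in females at 2 of 3 stages. Without the library labelled PGC female E11.5 its value was 0.087.

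None of these passed the threshold, and limma called 0 of 513 microRNAs (0%) between the sexes in PGC in RPM, with 83 at an unadjusted p under 0.05, and 2 (0.39%) on the deposited scale. In SC, 0 of 7 members were called between the sexes, beside 0 of 513 (0%) in RPM, 22 at an unadjusted p under 0.05, and 6 (1.17%) on the deposited scale.

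The members of miR-106a-363 followed each other closely over all 12 libraries, but within SC alone only miR-106a-5p and miR-20b-5p did. As a description over 12 libraries that share their total counts and the cell type split, Pearson's r of log2 levels was 1.00 between miR-106a-5p and miR-20b-5p and 0.96 between miR-106a-5p and miR-363-3p. Within the 6 PGC libraries the latter was 0.99 and within the 6 SC libraries 0.35. Between miR-106a-5p and miR-20b-5p, r within the 6 SC libraries was 0.97. Within SC, the 3 pairs that include miR-363-5p had r of -0.20 to 0.12. In miR-106b-25, r over all 12 libraries was 0.48 between miR-93-5p and miR-25-3p, 0.39 between miR-106b-5p and miR-93-5p and -0.29 between miR-106b-5p and miR-25-3p, and within SC it was 0.38, 0.58 and -0.44. Across clusters, miR-93-5p and miR-106a-5p had an r of 0.86. Among 249 microRNAs with a mean deposited value of at least 50, the 3 closest to the miR-106a-363 sum were miR-183-5p (0.99), miR-182-5p (0.99) and miR-293-5p (0.95). The 3 closest to the miR-106b-25 sum were miR-200a-5p (0.87), miR-17-5p (0.85) and miR-27b-5p (0.80).

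The X-linked sum split the libraries much as the cell type markers did. Its order within each group was not that of the germ cell list. With 1 library per condition, stage, sex and the make-up of a fraction cannot be told apart in these orders. The part of the markers in the result was not tested. The 5 PGC libraries with 67015 RPM or more of the miR-290 cluster list had the highest miR-106a-363 levels, and the library labelled PGC female E11.5 lay within the SC range for that list and just above it for miR-106a-363. In PGC male E11.5 the somatic list was at 59245 RPM, below the 86766 RPM of the lowest SC library, and miR-20b-5p stood at 6356 RPM. The SC libraries of E13.5 had 3305 and 5787 RPM of the germ cell list, above the other SC libraries. Their miR-20b-5p was at 405 and 301 RPM, beside 121 to 308 RPM in the other SC libraries. The miR-106a-363 members took 0.0707 and 0.0533% of reads in female and male SC of E13.5. They took 0.0708% in SC female E11.5, where the germ cell list was at 293 RPM. Among the 5 PGC libraries, PGC female E12.5 had the smallest miR-106a-363 share, 0.626%, with 124044 RPM of the germ cell list.

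**Figure D4:**
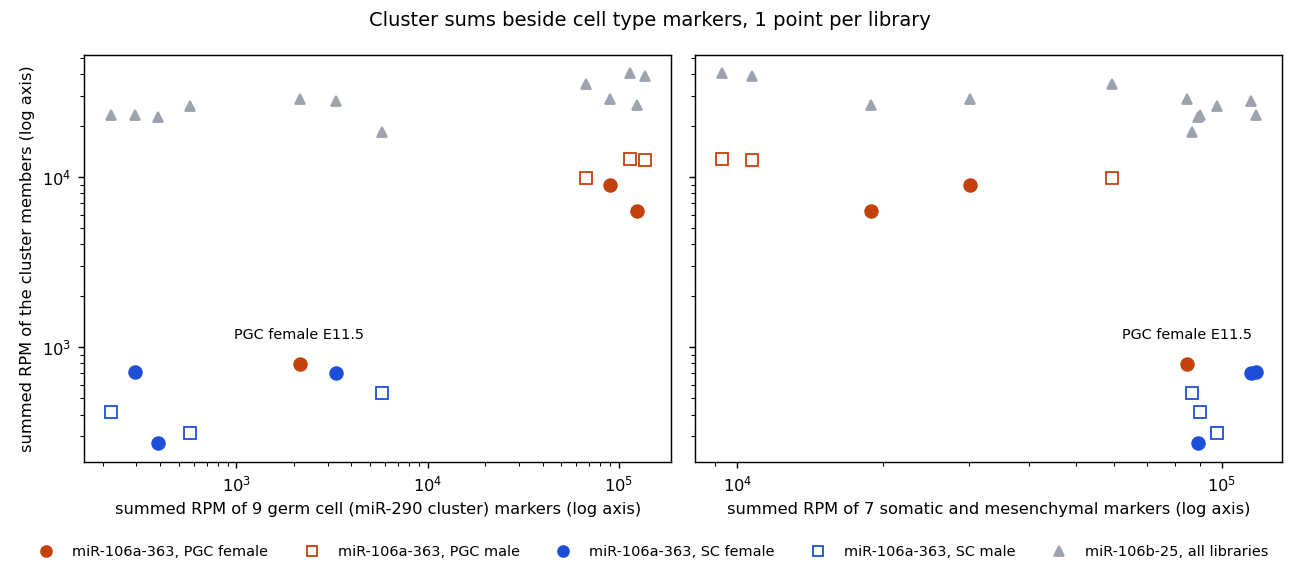
Summed RPM of the miR-106a-363 members (orange for germ cells, blue for somatic cells) and of the miR-106b-25 members (grey) against the summed RPM of the germ cell marker list (left) and the somatic marker list (right), all axes logarithmic and 1 point per library. The library labelled PGC female E11.5 (2141 RPM of germ cell markers) has a miR-106a-363 sum of 790 RPM, just above the highest somatic library (708 RPM), and the miR-106b-25 sums run from 18451 to 40669 RPM.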

How the data were processed

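Small RNA of 12 libraries was measured as reads per mature microRNA. What the authors deposited is a normalized signal: reads divided by 1 size factor for each library. Per the submitters' processing notes, FastQC, Trim Galore, Bowtie 1.1.2, GRCm38 and DESeq were used. How reads were counted, against which annotation release and with which features for the size factors is not given in the sources used here. Of the values, 100% were 0 or whole multiples (tolerance 1e-06) of the smallest value divided by 5, so reads were taken back from them and expressed as RPM of the column sum.

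Tests used limma 3.58.1 in R 4.3.3 (empirical Bayes with trend) on log2(RPM + 1) over the 513 microRNAs with a mean deposited value of at least 5, with Benjamini-Hochberg adjustment over all 513 and a threshold of 0.05. A fold change on this scale understates that of low microRNAs, except where a deposited 0 is involved. Such a 0 stands for under 5 reads but enters as 0 RPM, which can overstate the fold. PGC and SC were compared with the stage-by-sex pair as block (5 residual degrees of freedom). Stage and sex were additive terms within each cell type (4 residual degrees of freedom). In all, 6 comparisons were fitted, each also on log2(deposited value + 1). Since each condition is 1 library, the p-values reflect the spread among these libraries alone. The labels do not say that paired fractions came from the same gonads.

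The method was tested on simulated data. With changes among the less abundant microRNAs the test recovered most of them, but when abundant microRNAs were allowed to change, scaling to equal totals led to many calls among unchanged microRNAs. The simulation was then limited to the less abundant ones, so it does not cover that case, and RPM calls between cell types carry this limit.

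The 7 members, the miR-17-92 list, the 4 marker lists and RPM as the first scale were chosen with earlier results of these data known. Named were the members, products of the same hairpins, seed relatives, and for each cluster 3 others. These had the highest Pearson r of log2 level to its sum among the 249 microRNAs searched. Counting intervals are exact Clopper-Pearson at 95% and cover counting error only, since PCR copies could not be told from separate molecules. In all, 24 alternatives were fitted, 4 of them chosen after seeing the data.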

Additional observations from a re-analysis of the deposited data

Results flagged for a closer look

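In 14 groups of 6 libraries (7 members in each cell type), 3 held a library whose gap to its neighbour passed Dixon's 95% limit on the log2(RPM + 1) scale. That limit assumes replicates of the same condition, but the 6 libraries of a group differed in stage and sex. The groups also shared libraries, so no chance rate is set beside the 3. On the linear RPM scale 0 groups passed, and the log2 scale was chosen after both had been seen. miR-106a-5p in the library labelled PGC female E11.5 stood at 7.78, with the next PGC library at 10.45. miR-20b-5p in the same library stood at 8.73, with the next at 11.98. miR-106b-5p in PGC female E12.5, the library with the fewest reads, stood at 9.27 on 103 reads, with the next at 10.58.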

How the results depend on the processing

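Over 24 alternatives there were 904 values of single members, of which 808 kept direction and side of the threshold, 10 lost a call, 13 gained one and 73 changed sign. None (0) of the sign changes touched a member in a comparison where RPM called it. Of the calls between PGC and SC, miR-20b-5p passed in 23 of 24 alternatives (adjusted p = 0.000117 to 0.107), miR-106a-5p in 21 of 24 (0.000386 to 0.135), miR-363-3p in 20 of 24 (0.000619 to 0.206) and miR-363-5p in 21 of 23 (0.00139 to 0.151). The number of members called between PGC and SC was 4, and 1 without both E12.5 PGC libraries, 0 without both E13.5 SC libraries and 4 to 5 leaving out each library in turn. For stage in PGC it was 0, and 2 on the median-of-ratios scale, 1 with quantile normalization, 1 with a pseudocount of 10 and 0 to 3 leaving out each library in turn. Fewer libraries enter the fits that leave libraries out, and the cause of the other changes was not tested. With no replicate block, that is without the pairing of the libraries by stage and sex, 5 members were called, miR-93-5p (0.71, adjusted p = 0.0477) being added. Over all microRNAs, 200 were called between PGC and SC, 432 on the deposited scale (419 there without PGC female E11.5), 95 with no replicate block, 17 without both E12.5 PGC libraries, 7 without both E13.5 SC libraries and 85 to 121 without any single library of E12.5 or E13.5. For stage in PGC 148 were called, 93 without PGC female E11.5, 96 without PGC male E13.5, 22 on the deposited scale without PGC female E11.5 and 1 without both female E11.5 libraries. For stage in SC 41 were called, 24 without both female E11.5 libraries 5 without SC female E11.5, 5 without SC male E11.5, 6 without SC male E13.5 and 19 without either E12.5 SC library; for the stage difference between cell types 0 were called, 4 on the deposited scale and 7 with a pseudocount of 10.

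The log2 differences that changed sign were these. On the deposited scale they were, between PGC and SC, miR-106b-5p -2.21, miR-93-5p -1.52 and miR-25-3p -2.03, for stage in PGC miR-106b-5p -0.35 and miR-93-5p -0.38, for stage in SC miR-106b-5p 0.26 and miR-25-3p 0.26, for sex miR-25-3p 0.093 in PGC and 0.48 in SC, and for the stage difference between cell types miR-106b-5p -0.61, miR-93-5p -0.82 and miR-363-5p -0.072. On that scale without PGC female E11.5 they were miR-106b-5p -2.25, miR-93-5p -1.63 and miR-25-3p -2.30 between cell types and miR-25-3p 0.23 for stage in PGC. Without both E13.5 SC libraries, miR-106b-5p was at -0.15 between cell types. On the median-of-ratios scale miR-25-3p was at 0.15 for stage in PGC, 0.093 for stage in SC, 0.047 for sex in SC and 0.061 for the stage difference, and miR-106b-5p at 0.10 for stage in SC. With quantile normalization miR-106b-5p was at 0.21 and miR-363-5p at -0.018 for stage in SC, and miR-25-3p at 0.073 for sex in PGC. Without both female E11.5 libraries miR-25-3p was at 0.11 for stage in PGC, 0.10 for sex in SC and 0.43 for the stage difference, miR-106b-5p at 0.15 for stage in SC, miR-363-5p at 0.087 for sex in PGC, miR-106a-5p at -0.10 for sex in SC, and the stage differences of miR-106a-5p, miR-20b-5p and miR-363-5p were -0.41, -0.31 and -2.05. Leaving out each library in turn gave, between cell types, miR-106b-5p -0.12 to 0.19; for stage in PGC miR-106b-5p -0.29 to 0.83 and miR-25-3p -0.56 to 0.23; for stage in SC miR-106b-5p -0.37 to 0.17, miR-93-5p -0.34 to 0.49, miR-25-3p -0.40 to 0.18, miR-106a-5p -0.21 to 0.82 and miR-363-5p -0.72 to 2.64. It gave for sex in PGC miR-25-3p -0.39 to 0.056 and miR-363-5p -1.04 to 0.087, for sex in SC miR-93-5p -0.067 to 0.44, miR-25-3p -0.24 to 0.10 and miR-106a-5p -0.10 to 0.55, and for the stage difference miR-106b-5p -0.19 to 0.94, miR-93-5p -0.24 to 0.58, miR-25-3p -0.45 to 0.34, miR-20b-5p -0.024 to 3.09 and miR-363-5p -1.08 to 2.28. The planned count test in edgeR was not run, because no value stands for 1 to 4 reads, and limma voom was fitted in its place. Depth limits miR-363-5p most, at 46 reads or fewer per library.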
